A study of Mus musculus with 8 samples.

Results

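The 8 genes described here encode caspases that carry out apoptosis and the proteins that hold them in check: Casp8, Casp9, Apaf1, Casp6, Diablo, Birc2, Birc3 and Xiap. They were chosen by name from the deposited table of 14247 genes measured by bulk RNA sequencing in epithelial crypts of the mouse colon. All 8 were present, and all 8 passed the filter on low values that left 13503 genes for testing. The crypts came from mice labelled WT, on a C57BL/6 background and 2 to 4 months old, kept in 12 h of light and 12 h of darkness. Background, age and lighting are those of the methods section for all mice. Sampling times, counted in hours from lights on as zeitgeber time, were ZT0, ZT6, ZT12 and ZT18, with 2 libraries each, replicate 1 and replicate 2. The labels name no treatment and no Cre or floxed allele, whereas floxed Bmal1 mice without the Cre driver served as controls in the study's animal experiments. The labels do not state that the libraries of a time point came from different mice, and the study's captions give more mice per time point than there are libraries here, so the p-values below measure the spread between these libraries.

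Apoptosis runs through 2 routes that meet at the executioner caspases. In the extrinsic route a death receptor recruits and activates the initiator caspase-8. In the intrinsic route cytochrome c leaves the mitochondrion and assembles APAF1 into the apoptosome, which activates the initiator caspase-9. Inhibitor of apoptosis proteins (IAPs) restrain this machinery, and DIABLO, released from mitochondria, antagonises them. In the colon these pathways act in an epithelium that is renewed continually from stem cells at the crypt base.

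The question behind the sampling was whether apoptosis genes follow the clock. Here ZT0 and ZT6 were taken as the resting phase, with lights on, and ZT12 and ZT18 as the active phase, with lights off. Values are normalised counts, that is, reads of a gene divided by 1 size factor per library. Over the table the libraries held 14722342 to 25159440 reads, of which 6.68% to 22.2% came from mitochondrial genes, the 2 lowest shares being those of the ZT12 libraries. The 8 epithelial markers, among them Epcam and Vil1, were detected in every library, with summed normalised counts of 234399 to 317202. Markers of other cell types were uneven. In ZT12 replicate 1 the smooth muscle list (5 of 6 markers in the table) summed to 3672 normalised counts and in the other libraries to between 6.95 and 229. The list of B and plasma cells (5 of 6 in the table) summed to 1422 in ZT0 replicate 2, and elsewhere to between 31.8 and 345. Fewer cells of a type and less RNA per cell cannot be told apart in bulk crypts.

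Birc2 and Birc3 encode the paralogous ubiquitin ligases cIAP1 and cIAP2, which act in TNF receptor signalling and limit caspase-8 activation there. Both lie on the minus strand of chromosome 9 in GRCm38, Birc2 (ENSMUSG00000057367) at chr9:7818227-7837064 and Birc3 (ENSMUSG00000032000) at chr9:7848699-7873186, with 11634 bases between them. The longest stretch their annotated transcripts share without a mismatch is 114 bases, all of it coding in both genes. It is shown because reads lying wholly inside it cannot be given to 1 of the 2 genes by sequence. In Birc2 it lies in exon 5 of transcript Birc2-204 at chr9:7821098-7821211, and in Birc3 in exon 6 of Birc3-201 at chr9:7854491-7854604.
shared by Birc2 and Birc3: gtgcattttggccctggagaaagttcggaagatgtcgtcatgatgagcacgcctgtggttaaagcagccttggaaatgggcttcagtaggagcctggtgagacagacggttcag
Of all 100-base stretches, 15 of the 4548 in Birc2 transcripts (0.330%) and 15 of the 5057 in Birc3 transcripts (0.297%) occur in the other gene. A further gene, Gm7019, shares 82 stretches (1.62%) with Birc3.

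The letters just upstream of both genes are shown with each CG in capitals, because the values of these neighbouring paralogs are set side by side below. The sequences are from RefSeq on GRCm38.p6, read 5′ to 3′ along the minus strand, and end before the first annotated base of the gene.
Birc2, chr9:7837132-7837307: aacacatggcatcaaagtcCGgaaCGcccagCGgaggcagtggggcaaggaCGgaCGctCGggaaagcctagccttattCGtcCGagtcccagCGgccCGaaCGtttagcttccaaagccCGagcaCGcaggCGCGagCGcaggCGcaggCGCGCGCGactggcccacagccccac
Birc3, chr9:7873206-7873420: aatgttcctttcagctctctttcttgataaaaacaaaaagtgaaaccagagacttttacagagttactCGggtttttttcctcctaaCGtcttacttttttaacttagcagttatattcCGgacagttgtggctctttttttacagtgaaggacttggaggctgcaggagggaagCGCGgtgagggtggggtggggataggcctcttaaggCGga
The Birc2 stretch of 176 bases held 21 CG pairs and 67.0% G or C. The Birc3 stretch of 215 bases held 6 CG pairs and 44.2% G or C. Windows from 250 bases before to 50 bases after a RefSeq start were available for all 8 genes, 11 windows in all. Searched on both strands, none of the 11 held the E-box CACGTG, the E-box-like CACGTT, the D-box TTATGTAA or a kappaB motif. Among 32851 windows over all genes these were present in 7.15%, 4.68%, 0.938% and 4.51%, respectively. The search says only that these letters were not in those windows.

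Levels between genes were compared as normalised counts per kilobase of exon, averaged over the 8 libraries. Casp8 was the most abundant, at 727 ± 86.5 per kb (SD, n = 8), and lay above Birc3 in 8 of 8 libraries. Birc3 followed at 277 ± 91.9 per kb and Xiap at 243 ± 29.4 per kb. Their order was not fixed, as Birc3 was above Xiap in 4 of 8 libraries. Birc2 was at 144 ± 19.3 per kb, below Xiap in 8 of 8 libraries. Casp9, Apaf1 and Casp6 formed a lower group without a stable order, at 75.1 ± 12.3, 72.5 ± 7.35 and 71.8 ± 11.2 per kb. Diablo was at 2.93 ± 1.65 per kb, above 2.56% of the tested genes that had a length. That level is uncertain, as 91.3% of its annotated coding bases also belong to Gm49027 on the same strand, described below.

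**Figure D1:**
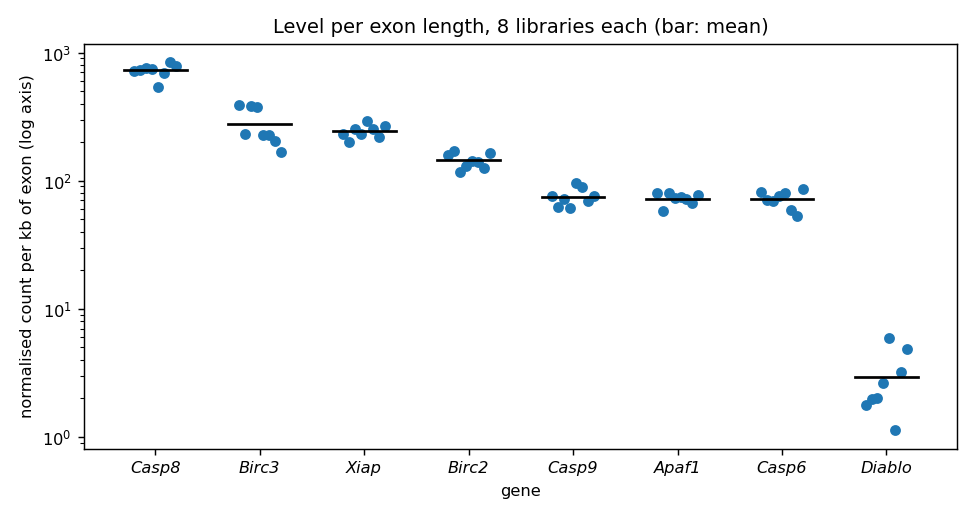
Normalised count per kilobase of exon (log axis) of the 8 genes, with 1 point per library and a bar at the mean of the 8 libraries. Casp8 stood above all others, Birc3 and Xiap overlapped, Casp9, Apaf1 and Casp6 overlapped, and Diablo lay between 1.12 and 5.92 per kb.

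Differences between times were tested with limma on log2(normalised count + 1) in 1 fit over all 8 libraries, with Benjamini-Hochberg adjustment over all 13503 genes. None of the 8 genes passed an adjusted p of 0.05 in the F-test over the 4 time points (0.0889% of all genes passed), in the 24 h cosine fit (0.118%) or for active against resting phase (0.0592%). The same count of 0 held for ZT12 against ZT0 (0.0667%), ZT18 against ZT6 (0.0444%), ZT6 against ZT0 (0.0444%), ZT18 against ZT12 (0.0296%), ZT12 against ZT6 (0%) and ZT18 against ZT0 (0%). At an unadjusted p under 0.05, 1 of the 8 passed the F-test (7.03% of all genes) and 1 the cosine fit (9.15%). The comparison of active with resting phase had 1 of the 8 as well (7.61%). In these comparisons that 1 gene was Birc3. It was also the 1 gene with such a p for ZT18 against ZT6 (6.71%), ZT12 against ZT6 (6.78%) and ZT18 against ZT0 (5.02%), while for ZT18 against ZT12 it was Casp8 (9.03%). Several of these unadjusted values rose over 0.05 in other settings or with 1 library left out, a fit with fewer libraries to estimate the spread. That of Birc3 was over 0.05 for ZT12 against ZT6 without either ZT6 library or ZT12 replicate 2, for ZT18 against ZT0 without ZT0 replicate 1 or ZT18 replicate 2, and in the F-test without ZT6 replicate 1. That of Casp8 was over 0.05 in 14 of 21 alternatives. The Birc3 log2 difference, ZT12 against ZT6, stayed between -0.76 and -0.73 with any 1 library left out. That of Casp8, ZT18 against ZT12, was 0.40 without any 1 of the ZT0 or ZT6 libraries. For ZT12 against ZT0 (9.96%) and ZT6 against ZT0 (4.13%), none of the 8 genes had an unadjusted p under 0.05 in the main fit. Other settings added genes. Leaving out libraries also did so for both of these comparisons, and is given here by log2 difference only. Casp9 was under 0.05 for ZT12 against ZT6 with edgeR, with a mean of at least 50 and in a fit of only the 4 libraries compared. Birc2 was so for ZT6 against ZT0 in such a fit. Without ZT0 replicate 1 the Birc3 log2 difference, ZT6 against ZT0, was 0.72, and without ZT0 replicate 2 it was -0.04. For ZT12 against ZT0 the Birc3 values were -0.02 without ZT0 replicate 1 and -0.79 without ZT0 replicate 2. An exact two-sided rank test for a 24 h rhythm called 0 of the 8 genes and 0% of all genes once adjusted, with a smallest adjusted p over all genes of 0.877. Its unadjusted p was under 0.05 for 0 of the 8 and for 2.06% of all genes. With 8 libraries the smallest p this test can give is 0.019 for orders peaking at 0 h or 6 h. For orders peaking at 3 h or 9 h it is 0.114, and peaks at the opposite times share these limits. These limits are high for an adjustment over 13503 genes, so the counts of 0 do not decide whether a gene has a rhythm. With edgeR's quasi-likelihood test on reads recovered from the values, 0 of the 8 were called in each of the comparisons above. Of all genes, edgeR called 0.0741% over the 4 time points, 0.0889% in the cosine fit and 0.00741% for active against resting phase. Between single times edgeR called 0.037% (ZT12 against ZT0), 0.0518% (ZT18 against ZT6), 0.037% (ZT6 against ZT0), 0.00741% (ZT18 against ZT12) and 0% (ZT12 against ZT6 and ZT18 against ZT0). DESeq2 on the same reads called Birc3 in 4 comparisons, given with its values below. It called 0 of the 8 for ZT12 against ZT0 (1.24% of genes with an adjusted p), ZT18 against ZT12 (0.733%), ZT18 against ZT0 (0.407%), ZT12 against ZT6 (0.325%) and ZT6 against ZT0 (0.189%). DESeq2 gave an adjusted p to 10885 genes for ZT12 against ZT0 and to 11670 for the cosine. It gave one to 13241 for ZT12 against ZT6 and for ZT6 against ZT0, and to all 13503 in the other comparisons.

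**Figure D2:**
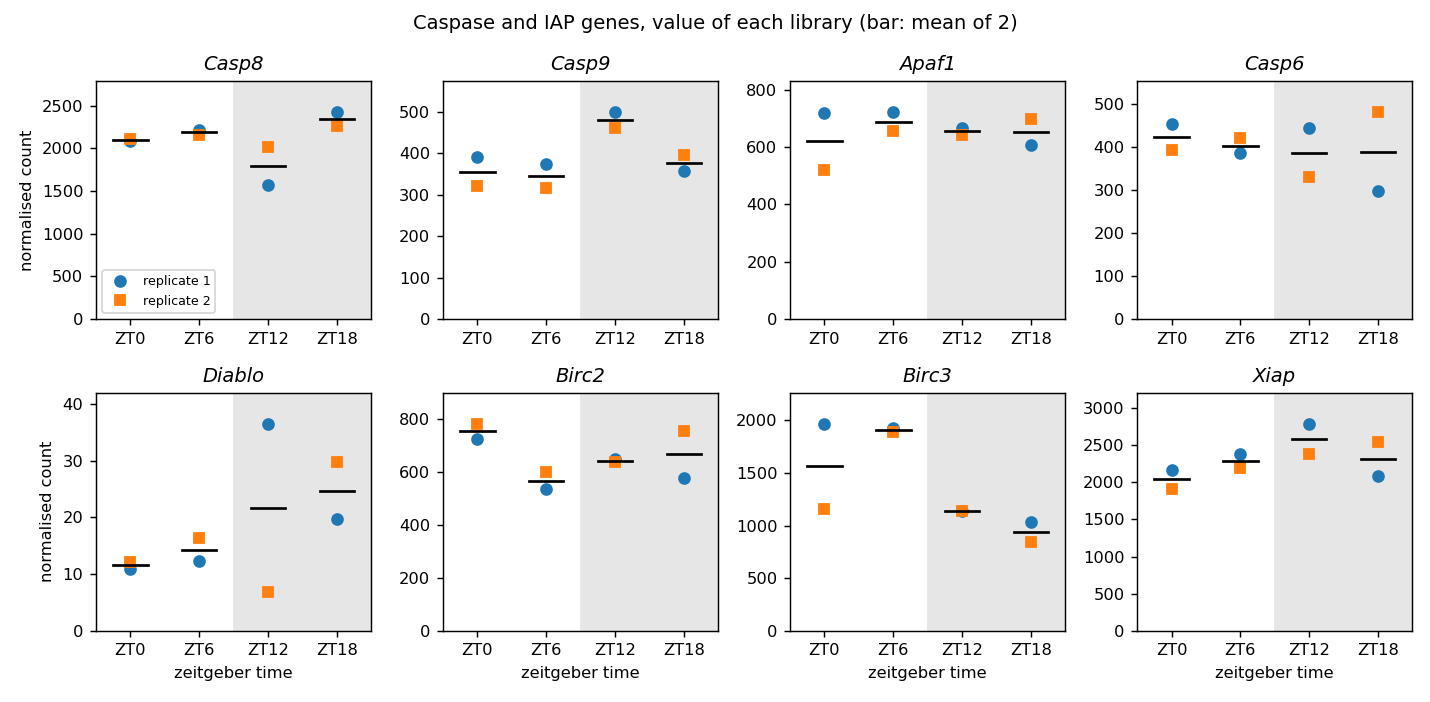
Normalised count of each gene (vertical axis from 0, own scale per gene) at ZT0, ZT6, ZT12 and ZT18, with circles for replicate 1, squares for replicate 2, a bar at the mean of both and the dark hours shaded. Birc3 lay between 840 and 1140 in the 4 shaded libraries and above that in the other 4, and in the other 7 genes the shaded and unshaded libraries overlapped.

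Apart from the sparsely counted Diablo, Birc3 varied most between libraries, with a coefficient of variation of 33.2% over the 8 libraries. The other 6 genes had 10.1% to 16.4%. Its normalised counts were 1967 and 1156 (ZT0), 1931 and 1884 (ZT6), 1140 and 1138 (ZT12), and 1030 and 840 (ZT18). The 4 libraries of the active phase all lay below the 4 of the resting phase, with ZT0 replicate 2 only just above the ZT12 libraries. A gap of this kind between the phases was found for 4.32% of all genes, and in the downward direction for 2.06%. The log2 difference, active against resting, was -0.72 ± 0.17 (SE; 95% interval -1.11 to -0.33), a level 0.607 times that of the resting phase (limma, unadjusted p = 0.0023, adjusted p = 0.437). By p it ranked at 70 of the 13503 genes in this comparison.

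The contrast of ZT18 with ZT6 gave Birc3 its widest difference, a log2 value of -1.04 ± 0.24 (SE; 95% interval -1.59 to -0.49), or 0.488 times the ZT6 level (limma, adjusted p = 0.494). ZT12 was also below ZT6, with a log2 difference of -0.74 ± 0.24 that did not pass adjustment (limma, adjusted p = 0.705). For ZT18 against ZT0 the log2 difference was -0.70 ± 0.24 (limma, unadjusted p = 0.0186, adjusted p = 0.927). It was -0.31 without ZT0 replicate 1, -1.08 without ZT0 replicate 2 and -0.55 without ZT18 replicate 2, so that its size also depended on single libraries. Between ZT12 and ZT0, the early active and early resting times, the log2 difference was -0.40 ± 0.24 (limma, adjusted p = 0.597). It was -0.79 without ZT0 replicate 2 and -0.02 without ZT0 replicate 1, so that its size depended on which ZT0 library was kept. The fitted 24 h cosine had an amplitude of 0.56 on the log2 scale and a peak at 4.58 h (limma, adjusted p = 0.314). The exact rank test placed the peak at 3 h with p = 0.114, which is the smallest p that its order for this peak allows, and an adjusted p of 0.877.

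With DESeq2 on the recovered reads, Birc3 had an adjusted p of 0.0274 for active against resting phase, where 0.504% of all genes were called. The DESeq2 value was 0.0377 for ZT18 against ZT6 (0.504% called), 0.0475 for the test over the 4 time points (1.61% called) and 0.0105 for the cosine (1.62% of 11670 genes called). With edgeR on the same reads the adjusted p was 0.46 for active against resting phase and 0.533 for ZT18 against ZT6. The log2 differences of the tools were close, at -0.74 in both for active against resting phase.

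T cell and smooth muscle markers were lowest where Birc3 was highest, whereas the B and plasma cell and myeloid sums did not follow Birc3 over the libraries. The B and plasma cell sum was 36.2 in ZT18 replicate 2, the library with the lowest Birc3, and 39.4 and 37.0 at ZT6. The myeloid sum was 25.8 in ZT0 replicate 1, 121 and 93.6 at ZT6, and 66.6 and 51.5 at ZT18. The T cell list (6 of 6 markers in the table) summed to 14.9, 38.2 and 34.8 normalised counts in ZT0 replicate 1, ZT6 replicate 1 and ZT6 replicate 2, the 3 libraries with the highest Birc3. In the other 5 libraries the T cell sum was between 88 and 169. Cd3e, Cd3d, Cd3g, Cd8a, Cd4 and Trac make up the list, and 4 of these 6 were at 0 in ZT0 replicate 1. ZT0 replicate 2, the resting-phase library with the lowest Birc3, also held the highest sums of B and plasma cell and myeloid markers. The part of the other cell types in the Birc3 difference was not tested. With ZT0 replicate 2 and ZT12 replicate 1 both left out, the log2 difference between active and resting phase was -0.91 ± 0.14 (SE; limma, adjusted p = 0.32).

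**Figure D3:**
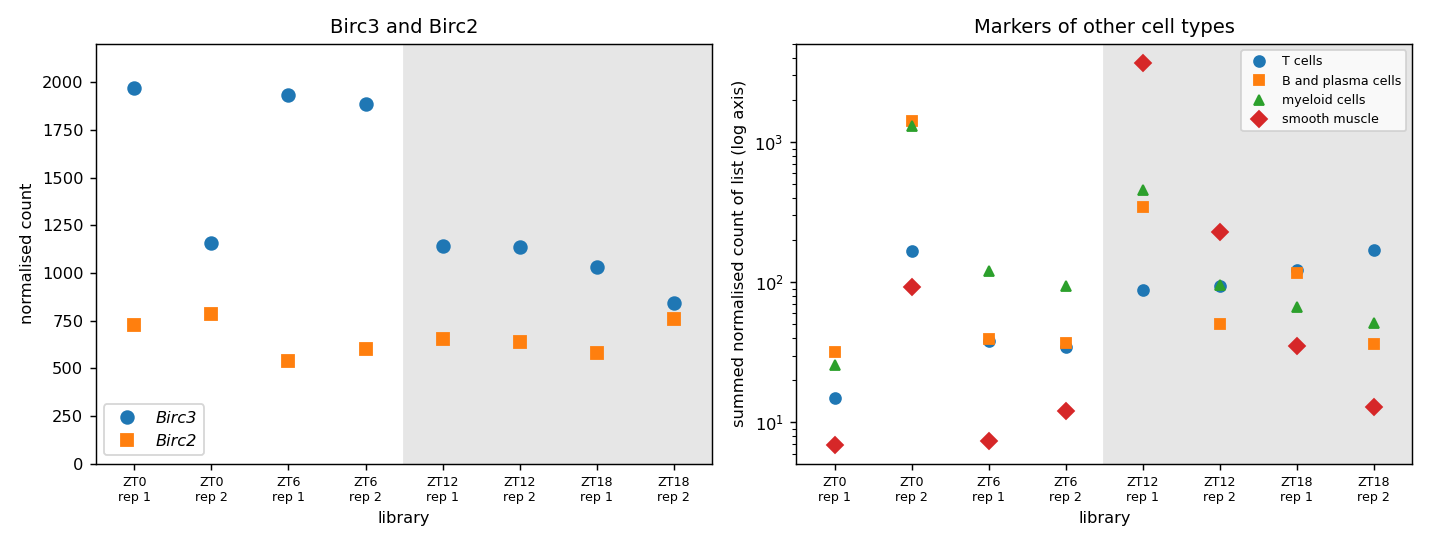
Left, normalised counts of Birc3 (circles) and Birc2 (squares) in each of the 8 libraries; right, summed normalised counts (log axis) of marker lists for smooth muscle, myeloid cells, T cells, and B and plasma cells in the same libraries, with the dark hours shaded in both. Birc3 was highest in the 3 libraries with the lowest T cell sums, between 14.9 and 38.2, and Birc2 stayed between 537 and 783.

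In Birc2 the libraries of the active and resting phases overlapped. Its normalised counts were 726 and 783 (ZT0), 537 and 598 (ZT6), 651 and 636 (ZT12), and 578 and 756 (ZT18). The ZT0 pair was above the ZT6 and ZT12 pairs, and ZT18 overlapped the other times. Active against resting phase gave a log2 difference of -0.00 ± 0.14 (SE; 95% interval -0.31 to 0.31; limma, adjusted p = 0.997). The widest Birc2 difference, ZT6 against ZT0, was a log2 value of -0.41 ± 0.19 (limma, unadjusted p = 0.0636, adjusted p = 1). The ratio of Birc3 to Birc2 normalised counts was 2.71 and 1.48 (ZT0), 3.59 and 3.15 (ZT6), 1.75 and 1.79 (ZT12), and 1.78 and 1.11 (ZT18). It was thus highest in both ZT6 libraries and lowest in ZT18 replicate 2, and the difference between the genes over the day was not tested.

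Xiap encodes the IAP that binds and inhibits caspases directly. The gene is on chromosome X at chrX:42059679-42109656, plus strand. Normalised counts of Xiap were 2172 and 1906 (ZT0), 2377 and 2199 (ZT6), 2789 and 2377 (ZT12), and 2079 and 2545 (ZT18). The ZT12 libraries lay above those of ZT0, and ZT18 overlapped all other times. The log2 difference, ZT12 against ZT0, was 0.34 ± 0.18 (SE; 95% interval -0.06 to 0.74; limma, adjusted p = 0.549).

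**Figure D4:**
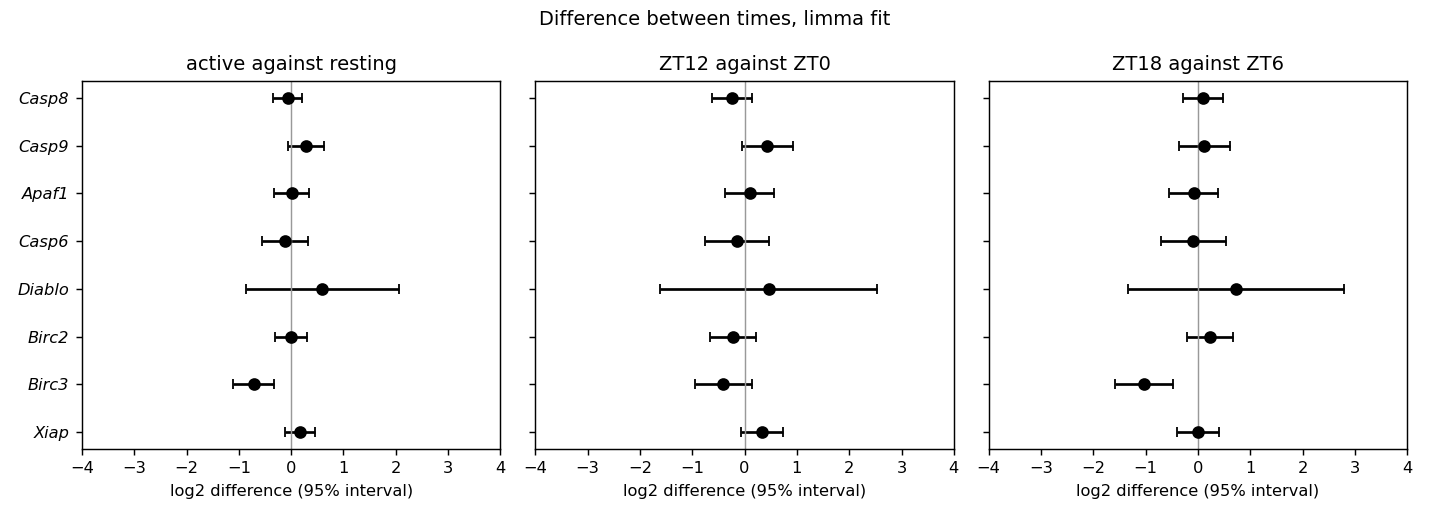
Log2 difference (points) with its 95% interval (bars) from the limma fit for the 8 genes, for active against resting phase, ZT12 against ZT0 and ZT18 against ZT6. The Birc3 interval lay below 0 for active against resting phase (-1.11 to -0.33) and for ZT18 against ZT6 (-1.59 to -0.49), and the intervals of the other 7 genes included 0 in each panel.

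Among the initiators, Casp8 (chr1:58795374-58847503, plus strand) had normalised counts of 2085 and 2107 (ZT0), 2210 and 2162 (ZT6), 1566 and 2018 (ZT12), and 2424 and 2260 (ZT18). Both ZT12 libraries were below all others, the lower being ZT12 replicate 1, which also had the highest smooth muscle sum of 3672. The log2 difference, ZT18 against ZT12, was 0.40 ± 0.17 (SE; 95% interval 0.01 to 0.78; limma, unadjusted p = 0.0451, adjusted p = 0.552). At an unadjusted p under 0.05, 9.03% of all genes passed there. Without ZT12 replicate 1 the log2 difference was 0.21 (limma, adjusted p = 1). The unadjusted p was 0.0681 when scaled to counts outside the mitochondrial genome, 0.0549 with edgeR and 0.0519 with DESeq2. The part of the other cell types in it was not tested.

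Casp9 (chr4:141793612-141815976, plus strand), the initiator of the intrinsic route, had its highest values where Casp8 had its lowest. Its normalised counts were 391 and 321 (ZT0), 376 and 318 (ZT6), 500 and 461 (ZT12), and 357 and 397 (ZT18). Both ZT12 libraries were above the other 6. These libraries also had the lowest mitochondrial shares, 6.68% and 7.85% against 9.8% to 22.2% in the others, and the highest smooth muscle sums, 3672 and 229 normalised counts against at most 93.3. The part of either in the Casp9 values was not tested. Against ZT6 the ZT12 log2 difference was 0.47 ± 0.21 (SE; 95% interval -0.01 to 0.96; limma, adjusted p = 0.739). Against ZT0 it was 0.44 ± 0.21 (limma, adjusted p = 0.527).

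Apaf1 (chr10:90989311-91082770, minus strand), the scaffold of the apoptosome, had normalised counts of 719 and 521 (ZT0), 722 and 655 (ZT6), 667 and 643 (ZT12), and 608 and 699 (ZT18). Apart from 521 in ZT0 replicate 2, its values lay within 608 and 722 and the time points overlapped. The log2 difference between active and resting phase was 0.01 ± 0.15 (SE; 95% interval -0.32 to 0.34; limma, adjusted p = 0.991), and its sign was the opposite under 3 other scalings.

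Casp6 (chr3:129901425-129914103, plus strand), an executioner caspase that cleaves nuclear lamins, had normalised counts of 454 and 395 (ZT0), 386 and 421 (ZT6), 444 and 330 (ZT12), and 298 and 482 (ZT18). Its lowest and highest values were the 2 libraries of ZT18, so that the spread within that time point spanned the whole range. Active against resting phase gave a log2 difference of -0.12 ± 0.19 (SE; 95% interval -0.55 to 0.32; limma, adjusted p = 0.899).

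Diablo (ENSMUSG00000029433, chr5:123509765-123524176, minus strand), the IAP antagonist, had few counts. Its normalised counts were 10.9 and 12.1 (ZT0), 12.3 and 16.3 (ZT6), 36.5 and 6.92 (ZT12), and 19.7 and 29.8 (ZT18), from 6 to 39 reads per library. The ZT12 libraries held both the highest and the lowest value, and that time point overlapped all others. For ZT12 against ZT0 the log2 difference was 0.46 ± 0.92 (SE; 95% interval -1.61 to 2.53; limma, adjusted p = 0.882). In GENCODE M21, 705 of the 772 coding bases of Diablo (91.3%) also belong to Gm49027, a protein-coding gene on the same strand. Of its 6166 exon bases, 1193 (19.3%) are shared with Gm49027 and 1326 (21.5%) with B3gnt4 on the opposite strand. Gm49027 was not analysed here. As the counting of reads and its use of strand are not given in the sources used here, the Diablo counts are uncertain, and how many reads the overlap took was not tested.

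**Figure D5:**
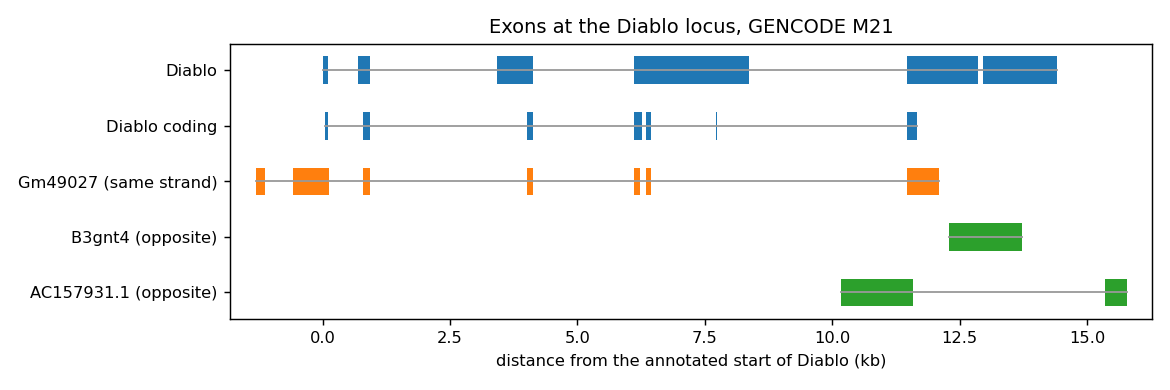
Annotated exons (boxes) of Diablo, its coding parts, Gm49027 on the same strand and B3gnt4 and AC157931.1 on the opposite strand, along the distance in kb from the annotated start of Diablo. Gm49027 covers 91.3% of the Diablo coding bases, and 1193 of the 6166 exon bases in all.

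With 2 libraries per time point, libraries of a pair of times that did not overlap were common among all genes. This held for 5 of the 8 genes between ZT12 and ZT0 (41.1% of all genes), 5 between ZT12 and ZT6 (45.7%), 4 between ZT6 and ZT0 (37.6%), and 3 between ZT18 and ZT6 (38%). Between ZT18 and ZT12 it held for 3 (36.4%), and between ZT18 and ZT0 for 3 (27.5%). The median log2 difference of the 8 genes, active against resting phase, was 0.00, as was that of all genes tested, with 4 of the 8 higher and 4 lower in the active phase. Over the 8 libraries, Pearson's r of log2 values among the 28 pairs of these genes ranged from -0.69 (Casp8 and Casp9) to 0.81 (Casp9 and Xiap), and 15 of the 28 were positive. These 8 points share libraries, depth and cell make-up, and the values are given as a description.

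By the rule of the highest Pearson's r over the 8 libraries among 13495 other genes, each gene had a nearest partner. Birc3 was most like Endov (r = 0.97), whose normalised counts were 509 and 394 (ZT0), 561 and 495 (ZT6), 392 and 360 (ZT12), and 368 and 333 (ZT18). Xiap was most like Sbf2 (r = 0.99), Casp8 like Ube2b (r = 0.99), Casp9 like Tns3 (r = 0.98) and Casp6 like Kansl1l (r = 0.98). Birc2 was most like Tcaf1 (r = 0.97), Apaf1 like Gm42067 (r = 0.96) and Diablo like Gdpgp1 (r = 0.95). The hundredth nearest gene to Birc3 still had r = 0.83.

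Other genes of these pathways were taken as 6 lists of 52 genes in all, of which 48 were tested. None passed an adjusted p of 0.05 with limma in any of the comparisons above. At an unadjusted p under 0.05, 7 of the 48 passed for active against resting phase, beside 7.61% of all genes, and 4 for ZT12 against ZT0, beside 9.96%. The genes named here had the 2 largest absolute log2 differences of their list for ZT12 against ZT0.

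In the list of other caspases, 4 of 7 were higher and 3 lower at ZT12 than at ZT0, and none passed. Casp4, which senses cytosolic lipopolysaccharide, had normalised counts of 837 and 807 (ZT0), 1435 and 1487 (ZT6), 449 and 617 (ZT12), and 1627 and 643 (ZT18). Its ZT6 pair stood close together and its ZT18 libraries were far apart, and the log2 difference, ZT12 against ZT0, was -0.64 ± 0.37 (limma, adjusted p = 0.576). Casp12 had between 0 and 25.3 normalised counts and was at 0 in ZT0 replicate 1 and ZT18 replicate 1.

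Of the other IAP family genes, 3 of 6 tested were higher and 3 lower at ZT12 than at ZT0. Birc5, the survivin gene of dividing cells, had normalised counts of 391 and 420 (ZT0), 253 and 232 (ZT6), 131 and 248 (ZT12), and 254 and 176 (ZT18). Both ZT0 libraries were above the other 6, and the log2 difference, ZT12 against ZT0, was -1.16 ± 0.33 (limma, unadjusted p = 0.0065, adjusted p = 0.378). The summed list of stem and proliferating cells was also highest in ZT0, with 8698 and 6964 normalised counts against 4954 to 6574 elsewhere, and its part in the Birc5 value was not tested. Naip6, a member of the NAIP family, was at 5500 in ZT12 replicate 1 and between 1362 and 2617 in the other libraries (ZT12 against ZT0, limma, adjusted p = 0.518). Birc7 was not analysed here.

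Among genes of mitochondrial release, 4 of 5 tested were higher at ZT12 than at ZT0 and 1 was lower, none past the threshold. Endog, a mitochondrial nuclease, had a log2 difference of 0.59 ± 0.28 (limma, adjusted p = 0.524), and Htra2, a mitochondrial protease that also antagonises IAPs, one of 0.24 ± 0.40 (limma, adjusted p = 0.857). In the death receptor list 8 of 14 tested were higher and 6 lower at ZT12 than at ZT0. Ripk3, the kinase of necroptosis, had normalised counts of 548 and 685 (ZT0), 708 and 743 (ZT6), 343 and 429 (ZT12), and 526 and 601 (ZT18). Both ZT12 libraries were below the other 6, and the log2 difference, ZT12 against ZT0, was -0.67 ± 0.21 (limma, unadjusted p = 0.0099, adjusted p = 0.387). Mlkl of the same list, named here after its values were seen, went the other way. Its log2 difference was 0.63 ± 0.21 (limma, unadjusted p = 0.0135, adjusted p = 0.399). Tnf, which encodes the ligand of TNF receptors, had 4.68 to 19.9 normalised counts, with a log2 difference of -1.09 ± 0.89 (limma, adjusted p = 0.699).

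Of the caspase substrates, 3 of 8 were higher and 5 lower at ZT12 than at ZT0. Dffb, the nuclease that cuts DNA between nucleosomes in apoptosis, had a log2 difference of 0.49 ± 0.39 (limma, adjusted p = 0.693), and Lmna, which encodes the lamins A and C, one of -0.38 ± 0.26 (limma, adjusted p = 0.642). Birc3 is a known target of NF-kappaB, and whether NF-kappaB had a part in its values was not tested. In the list of NF-kappaB targets and regulators, 6 of 8 tested genes were lower and 2 higher in the active than in the resting phase. The median log2 difference of that list was -0.33, beside 0.00 for all genes, and 2 of the 8 had an unadjusted p under 0.05, as did 7.61% of all genes. Without ZT0 replicate 2, again 6 were lower and 2 higher, with a median of -0.19. Icam1, the gene of an adhesion molecule that is named here after its values were seen, had 106 normalised counts in ZT0 replicate 2 and 5.96 to 20.9 in the other libraries. For ZT18 against ZT6, where Birc3 differed most, 5 of the 8 were higher and 3 lower, with a median of 0.09. Nfkbia, also named after its values were seen, was among the 3 and had the smallest p there (limma, unadjusted p = 0.0439, adjusted p = 0.741). Its normalised counts were 973 and 803 (ZT0), 1055 and 1173 (ZT6), 682 and 664 (ZT12), and 809 and 864 (ZT18). For active against resting phase its log2 difference was -0.40 ± 0.12 (limma, unadjusted p = 0.0101, adjusted p = 0.604). Ltb, the lymphotoxin beta gene, had 153 normalised counts in ZT0 replicate 2, the library with the highest B and plasma cell sum, and 11.5 to 41 elsewhere (ZT12 against ZT0, limma, adjusted p = 0.505). Tnfaip2 had between 0 and 55 normalised counts, highest in the same library (limma, adjusted p = 0.827).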

How the data were processed

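Bulk RNA sequencing of colonic crypts gave 8 libraries, 2 at each of 4 time points. The authors aligned reads with STAR to GRCm38 and used DESeq2. Counting, strand use and annotation are not given in the sources used here, and the library kit named in the labels differs from that in the study's methods. The deposited table holds as its signal the normalised count, that is, the authors' reads per gene divided by 1 size factor per library. All values were whole multiples of 1 read (100% per library, tolerance 0.01 reads), so reads were recovered. The authors also deposited log2 fold changes, their standard errors, a Wald statistic as a test score, and p-values. Their contrast is not named and they were not used.

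Log2(normalised count + 1) of genes with a mean of at least 10 was fitted with limma 3.58.1 (R 4.3.3), with a mean-variance trend and 1 mean per time point. A 24 h cosine, an F-test and 7 contrasts were tested, and an exact two-sided rank test over 4 peak orders was run. Each was adjusted by Benjamini-Hochberg over all 13503 genes. Alternatives were other scalings, pseudocounts and filters, a replicate block, edgeR 4.0.16 and DESeq2 1.42.0 on recovered reads, and leaving out each library. The scripts were tested on simulated data. Genes and pathway lists were chosen with earlier results of these data known. Besides the 8 genes, the 2 genes per list with the largest absolute log2 difference for ZT12 against ZT0, any gene past the threshold, and the best correlated gene were named. Lengths and overlaps are from GENCODE M21, promoters from RefSeq, both on GRCm38. In a library, 3 reads correspond to 2.41 to 3.7 normalised counts.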

Additional observations from a re-analysis of the deposited data

How the results depend on the processing

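The number of the 8 genes called at an adjusted p under 0.05 was 0 in 193 of 197 recomputed values over 10 tests, among them those that left out 1 library (range 0 to 0). It was 1, Birc3, with DESeq2 on recovered reads for ZT18 against ZT6, active against resting phase, the test over the 4 time points and the cosine. Why DESeq2 differed from edgeR was not tested. The 10 tests include the rank test, whose smallest possible p with these libraries left a call at this threshold hardly attainable. For Birc3, active against resting phase, the adjusted p ranged from 0.0274 (DESeq2) to 0.999 (without ZT6 replicate 1) and the log2 difference from -0.91 to -0.53.

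Log2 differences near 0 changed sign. For active against resting phase, Apaf1 was at -0.0021 with TMM, -0.0013 with quantile normalisation and -0.029 when scaled to counts outside the mitochondrial genome, and Birc2 at 0.00035 with edgeR and 0.0018 with DESeq2. For ZT18 against ZT6, Xiap was at -0.020 with quantile normalisation and -0.033 outside the mitochondrial genome. Leaving out 1 library gave, for active against resting phase, -0.16 to 0.022 (Casp8), -0.11 to 0.13 (Apaf1), -0.29 to 0.056 (Casp6) and -0.099 to 0.093 (Birc2). For ZT12 against ZT0 the ranges were -0.13 to 0.33 (Apaf1), -0.36 to 0.068 (Casp6) and -0.66 to 1.58 (Diablo), and for ZT18 against ZT6 -0.18 to 0.023 (Apaf1), -0.43 to 0.26 (Casp6) and -0.14 to 0.15 (Xiap). Leaving out both ZT0 replicate 2 and ZT12 replicate 1, an alternative chosen after seeing the data, gave 0.026 (Casp8), -0.12 (Apaf1) and 0.016 (Birc2) for active against resting phase, and -0.16 (Apaf1) and -0.59 (Diablo) for ZT12 against ZT0.

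Deviations of libraries with the same replicate number correlated between -0.29 and 0.22, without a common sign. Whether the numbers mark anything shared between time points is not settled by these values. With the replicate block the count was 0 of 8 in each test, and Birc3 had an adjusted p of 0.476 for active against resting phase. A mean of at least 50 removed Diablo. Diablo had 6 to 39 reads per library, both extremes at ZT12, and its counting error was not separated from the spread between libraries.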
